A study of Mus musculus with 4 samples.

Results

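The genes described here are 10 interferon-inducible genes of the mouse Parp and Schlafen families. They are Parp9, Parp10, Parp11, Parp12 and Parp14, the ubiquitin ligase gene Dtx3l, and Slfn1, Slfn2, Slfn5 and Slfn8. They were taken by symbol from the 17013 genes the authors listed, and all 10 were found. Primary macrophages grown from bone marrow of wild-type (WT) C57BL/6 mice were kept for 24 h on porous inserts, with medium made from freeze-thawed abdominal fat placed under the inserts. The fat control medium (Con, FAT_con in the labels) was the middle layer of that preparation, and Fat (FAT_high in the labels), the high-fat-containing medium, was its top layer. Both media were given with artificial necrotic bone fluid (aNBF), so the comparison is between necrotic media and holds no untreated cells. RNA was sequenced from 2 libraries per medium, and the sources used here do not say whether replicates came from separate mice or cultures. The p-values therefore measure the spread between these libraries, which may be technical.

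Parp enzymes transfer ADP-ribose from the cofactor NAD to proteins. The founding member, Parp1, builds long chains at damaged DNA, whereas Parp10, Parp11, Parp12 and Parp14 attach single units. Parp9 works as a complex with Dtx3l, and both are known as interferon-stimulated genes. Schlafen proteins are a family of growth-regulating and antiviral proteins. Slfn1 and Slfn2 are short forms, known from T cells, and Slfn5 and Slfn8 are longer forms with a helicase-like part. Interferons act through factors that bind short promoter elements, among them the interferon regulatory factors (IRFs). The sources used here name no interferon added to these cultures, so inducibility itself was not measured.

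Read totals lay between 33573852 and 40785872 per library. A single read was worth between 0.0244 and 0.0295 CPM (reads scaled to library size, with a small further factor per library). The 10 genes had between 112 and 12316 reads in a library, and all 10 passed the filter of at least 0.5 CPM in at least 2 libraries. Among the macrophage markers, 8 of 8 were found, Lyz2, Itgam and Csf1r at over 1000 CPM in every library. For a bulk culture, fewer cells of a kind and less RNA per cell cannot be told apart.

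The 10 genes together held 1561 and 1278 CPM in Con replicates 1 and 2, and 1055 and 784 CPM in Fat replicates 1 and 2. Each of the 10 was lower in both Fat libraries than in both Con libraries, an arrangement found in 26.2% of the 12470 tested genes. With limma on log2(CPM + 0.1) and an adjusted p-value under 0.05, 8 of the 10 were called lower in Fat and 0 higher, against 5.0% of all tested genes called lower and 3.99% called higher. At an unadjusted p-value under 0.05, 10 were lower and 0 higher, against 12.4% of tested genes lower. The 2 genes not called were Parp10 and Slfn8. The median log2 fold change of the 10 was -0.67, and that of all tested genes was 0.01. Without Slfn1, which had the largest difference of the 10, the median was -0.64.

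**Figure D1:**
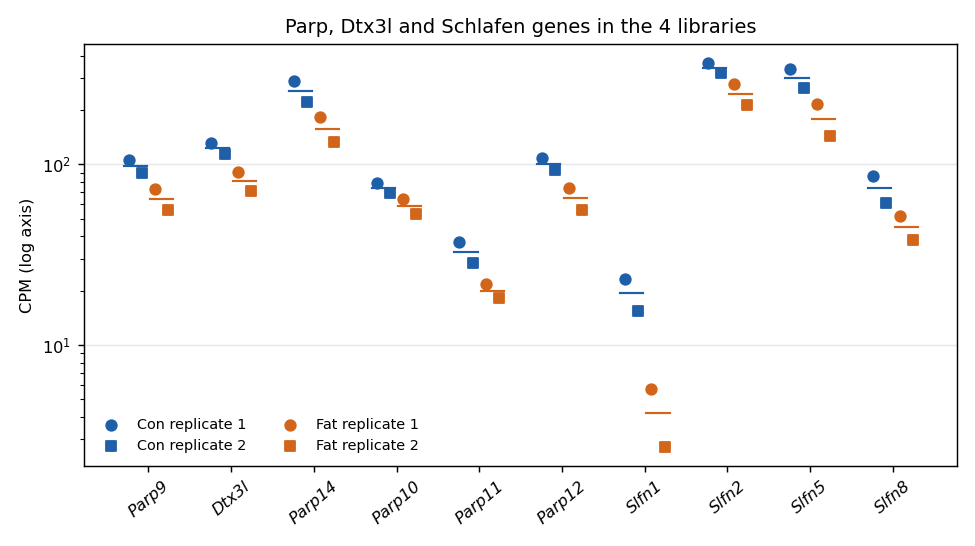
Level of each of the 10 genes in CPM (log axis) in the 4 libraries, Con in blue and Fat in orange, with circles for replicate 1, squares for replicate 2 and a line at the mean of each medium. In every gene both orange points lie below both blue points, and the widest separation is that of Slfn1, at 15.5 CPM or more in Con and 5.68 CPM or less in Fat.

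The spread between replicates was wide for these genes. All 10 had their highest level in Con replicate 1, then Con replicate 2, Fat replicate 1 and Fat replicate 2, an order shared by 10.1% of tested genes. In 3 of the 10 (Dtx3l, Parp11 and Slfn1) the gap between the nearest Con and Fat libraries on the log2 scale was larger than both gaps between replicates, against 11.7% of tested genes with such a gap downwards. The number called followed from which library was used. Without Con replicate 1 it was 3 (2.68% of tested genes called lower), and without Fat replicate 2 it was 3 (2.51%). Without Con replicate 2 it was 10 (4.91%), and without Fat replicate 1 it was 10 (4.68%). Dtx3l and Slfn1 had an adjusted limma p-value under 0.05 in each of these 4 fits.

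Parp9 and Dtx3l, the genes of the complex, fell by like amounts. Parp9 was at 106.1 and 90.1 CPM in Con and at 73.2 and 56.2 CPM in Fat. Dtx3l was at 131.3 and 114.5 CPM in Con and at 90.2 and 71.6 CPM in Fat. The lower Con library of each gene stayed above its higher Fat library. Parp9 fell by 0.61 on the log2 scale (standard error 0.13, adjusted p = 0.029), and Dtx3l fell by 0.61 (standard error 0.11, adjusted p = 0.0198). Parp9 was not called without Con replicate 1 (adjusted p = 0.0655) or without Fat replicate 2 (adjusted p = 0.0575). Their mean CPM was lower by 34.1% and 34.2% in Fat. Scaled for gene length (TPM), Parp9 stood at 1.17 and 1.14 times the level of Dtx3l in the Con libraries and at 1.18 and 1.14 times in the Fat libraries, so the ratio between the partners differed less between media than between replicates. The genes are neighbours on chromosome 16 on opposite strands, and 458 of their exonic bases overlap, 9.40% of Parp9 and 8.0% of Dtx3l in the GENCODE M21 annotation. The library kit keeps the strand, but whether the counting used it is not given in the sources used here, and without it reads from that overlap cannot be told apart.

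Parp14 follows Dtx3l on the other side on the same chromosome. It encodes a large macrodomain protein known as a cofactor of Stat6 in the response to interleukin 4. Parp14 was at 290.5 and 221.7 CPM in Con and at 182.1 and 133.3 CPM in Fat. The distance between the Con replicates (0.39 on the log2 scale) and that between the Fat replicates (0.45) were both larger than the distance of 0.28 between Con replicate 2 and Fat replicate 1. The gene fell by 0.70 on the log2 scale (standard error 0.16, adjusted p = 0.0393). It was not called without Con replicate 1 (adjusted p = 0.0818), without Fat replicate 2 (adjusted p = 0.0917), without a filter on low genes (adjusted p = 0.0514), with a required mean of 5 CPM (adjusted p = 0.0511) or with DESeq2 on the recovered reads (adjusted p = 0.165).

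Parp12, a zinc-finger family member with antiviral activity, was at 108.3 and 92.5 CPM in Con and at 74.1 and 55.6 CPM in Fat. It fell by 0.64 on the log2 scale (standard error 0.13, adjusted p = 0.0281), a mean level lower by 35.4%. It was not called without Con replicate 1 (adjusted p = 0.0629) or with DESeq2 (adjusted p = 0.0801). Parp11, a small member of the single-unit group, was at 36.9 and 28.6 CPM in Con and at 21.9 and 18.1 CPM in Fat. Parp11 was the Parp gene with the lowest CPM among the 10, and it fell by 0.70 on the log2 scale (standard error 0.14, adjusted p = 0.0223). Without Fat replicate 2 Parp11 was not called (adjusted p = 0.0575). Parp10, which encodes an enzyme that attaches single ADP-ribose units, showed the smallest difference. It was at 78.7 and 69.1 CPM in Con and at 64.1 and 52.8 CPM in Fat. Its nearest Con and Fat libraries were 0.11 apart on the log2 scale, less than either pair of replicates. The log2 fold change of Parp10 was -0.34 (95% interval -0.58 to -0.10) and was not called (adjusted p = 0.0877). On the recovered reads Parp10 was called with DESeq2 (adjusted p = 0.0404) and edgeR's exact test (adjusted p = 0.0296). It was not called with edgeR's quasi-likelihood test (adjusted p = 0.0857). With a library left out its log2 fold change lay between -0.48 and -0.20.

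Slfn1 differed most. It was at 23.1 and 15.5 CPM in Con (784 and 582 reads) and at 5.68 and 2.73 CPM in Fat (212 and 112 reads). The gap of 1.43 on the log2 scale between Con replicate 2 and Fat replicate 1 exceeded the gaps within Con (0.57) and within Fat (1.03). The gene fell by 2.23 on the log2 scale (standard error 0.32, 95% interval -2.98 to -1.49, adjusted p = 0.0085), a mean level lower by 78.2%.

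Slfn2, the gene next to Slfn1 on chromosome 11, had the highest level of the 10. It was at 363.1 and 319.8 CPM in Con and at 276.9 and 212.9 CPM in Fat. Slfn2 fell by 0.49 on the log2 scale (standard error 0.12, adjusted p = 0.0487), close to the threshold, and it missed the threshold (adjusted p = 0.0503) with edgeR's quasi-likelihood test. Leaving out Con replicate 1 (adjusted p = 0.117) or Fat replicate 2 (adjusted p = 0.131) also ended the call. It was not called without a filter on low genes (adjusted p = 0.0643), with a required mean of 5 CPM (adjusted p = 0.0599) or with DESeq2 (adjusted p = 0.177). Per length, Slfn1 stood at 0.057 and 0.0435 times the TPM level of Slfn2 in Con, and at 0.0184 and 0.0115 times in Fat. The ratio was lower in both Fat libraries than in both Con libraries.

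Slfn5, a long Schlafen, was at 336.7 and 264.4 CPM in Con and at 214.5 and 142.6 CPM in Fat. It fell by 0.77 on the log2 scale (standard error 0.18, adjusted p = 0.0446), a call lost without Con replicate 1 (adjusted p = 0.101) or Fat replicate 2 (adjusted p = 0.0743). The call was also lost without a filter on low genes (adjusted p = 0.0580), with a required mean of 5 CPM (adjusted p = 0.0565) and with DESeq2 (adjusted p = 0.198). Slfn5os, annotated on the opposite strand, covers 8.84% of its exonic bases. Slfn8 was at 86.1 and 61.2 CPM in Con and at 51.8 and 38.0 CPM in Fat. Its Con replicates were 0.49 apart on the log2 scale, farther than the 0.24 between the nearest Con and Fat libraries. The log2 fold change of Slfn8 was -0.71 (95% interval -1.13 to -0.29), close to that of Parp11, but it was not called (adjusted p = 0.0536). Slfn8 was called with edgeR's exact test (adjusted p = 0.00221), but not with its quasi-likelihood test (adjusted p = 0.0503) or DESeq2 (adjusted p = 0.210). With a library left out its log2 fold change lay between -0.96 and -0.47.

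By TPM, which allows levels of different genes to be compared, Slfn2 led in Con at 444.9 ± 46.0 (SD, n = 2), and Slfn5 followed at 108.9 ± 19.99. Parp14 (76.6 ± 15.6), Parp12 (67.4 ± 8.40), Parp9 (59.7 ± 7.73), Dtx3l (51.4 ± 5.69), Parp10 (47.2 ± 4.95) and Slfn8 (39.9 ± 10.05) came next, and within this run each gene overlapped the one after it. Slfn1 (22.6 ± 6.58) and Parp11 (19.1 ± 3.70) were lowest and overlapped each other. In Fat the order of the first 5 was kept, with Slfn2 at 326.0 ± 60.4 TPM, while Slfn1 moved to the last place at 5.02 ± 2.49 TPM and no longer overlapped Parp11 at 11.9 ± 1.60 TPM.

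Promoter windows were read from RefSeq (build GRCm38.p6), which holds a window for 7 of the 10 genes and covers 250 bases before to 50 bases after an annotated start site. They were searched on both strands for the core of the interferon-stimulated response element (ISRE), which is GAAA and a second GAAA parted by any 2 bases, for the IRF site AANNGAAA, which lies within every ISRE core, and for the gamma-activated sequence (GAS, TTCNNNGAA), an element of the response to interferon gamma. The ISRE core was found for 3 of the 7 genes (Parp11, Slfn5 and Slfn8) and in the windows of 3.99% of all 27025 genes. The IRF site was found for 6 of the 7, all but Parp12, and in those of 26.7% of all genes. The GAS letters were found for 1 of the 7 (Parp11, overlapping its ISRE core) and in those of 9.55% of all genes. Parp11 and Slfn8 have 2 windows each. All matches of Parp11 lay in its first window and none in its second, whereas both windows of Slfn8 held an ISRE core. These are matches of letters and not measured sites. Unlike in the other first windows, the bases after the start site of Slfn1 were not found in a GENCODE M21 transcript of the gene. The 160 bases before the start site are shown for Slfn1, which differed most, for the 3 genes with an ISRE core, and for Slfn9, the neighbour of Slfn8. Each is written 5′ to 3′ on the gene's strand, with matches to the IRF site or the ISRE core in capitals.
Slfn1, plus strand, chr11:83116660-83116819: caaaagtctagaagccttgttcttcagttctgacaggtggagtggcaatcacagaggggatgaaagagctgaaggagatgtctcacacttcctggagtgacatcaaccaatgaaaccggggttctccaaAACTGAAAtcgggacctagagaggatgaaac
Slfn5, plus strand, chr11:82951942-82952101: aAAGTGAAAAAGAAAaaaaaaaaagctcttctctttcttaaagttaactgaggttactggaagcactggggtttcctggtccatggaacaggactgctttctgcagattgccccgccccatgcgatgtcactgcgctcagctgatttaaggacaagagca
Slfn8, minus strand, chr11:83020811-83020970: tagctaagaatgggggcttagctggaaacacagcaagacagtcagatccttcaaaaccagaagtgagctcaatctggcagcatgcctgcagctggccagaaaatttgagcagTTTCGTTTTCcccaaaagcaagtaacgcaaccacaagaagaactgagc
Slfn9, minus strand, chr11:82991831-82991990: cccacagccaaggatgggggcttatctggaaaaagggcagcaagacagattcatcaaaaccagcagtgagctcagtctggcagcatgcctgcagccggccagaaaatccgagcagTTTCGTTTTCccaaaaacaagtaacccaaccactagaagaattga
Parp11, plus strand, chr6:127446680-127446839: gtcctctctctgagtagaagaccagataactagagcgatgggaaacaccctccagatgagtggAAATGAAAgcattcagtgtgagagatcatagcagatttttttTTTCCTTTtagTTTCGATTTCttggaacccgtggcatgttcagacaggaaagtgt

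**Figure D2:**
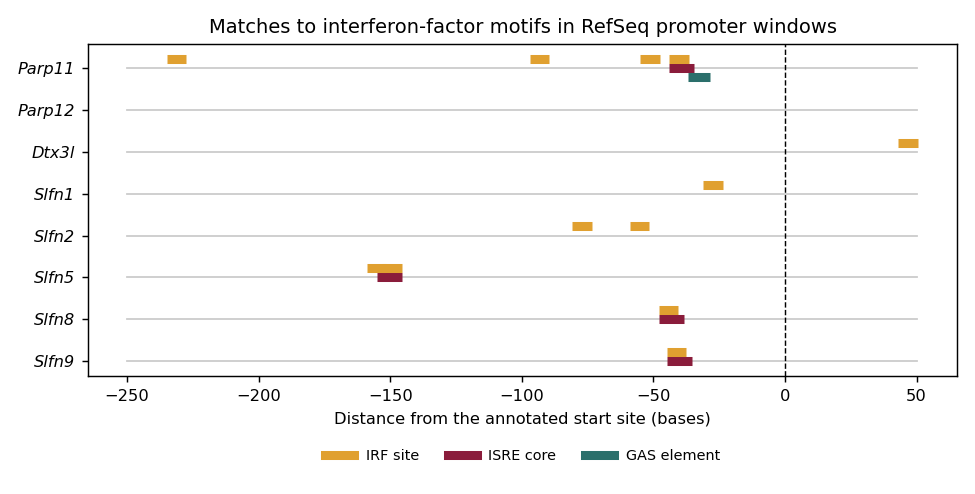
Matches to the IRF site (orange), the ISRE core (dark red) and the GAS element (teal) in the first RefSeq promoter window of 7 of the genes and of Slfn9, by distance in bases from the annotated start site (dashed line). The ISRE cores of Parp11, Slfn8 and Slfn9 begin at -44, -48 and -45, that of Slfn5 begins at -155, and the window of Parp12 holds no match.

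The stretches of Slfn8 and Slfn9 share 135 of 160 bases (84.4%) in a global alignment, and both hold an ISRE core near the start site. Slfn9 is not among the 10 genes. It was at 16.8 and 13.6 CPM in Con and at 8.71 and 7.10 CPM in Fat, with a log2 fold change of -0.94 (standard error 0.14, adjusted p = 0.00961). Both genes were lower in Fat, and Slfn8 stood at 4.93 and 4.31 times the TPM level of Slfn9 in Con and at 5.71 and 5.14 times in Fat. Of the stretches of 75 bases in the Slfn8 transcripts, 6.99% occur unchanged in another gene, mostly in Slfn10-ps, and 5.90% of those of Slfn9 do. Reads from those stretches could be placed on another gene. Stretches that differ by a few bases were not counted, so these shares set no upper limit. For the other 9 genes described the share found unchanged on the same strand was at most 2.99%. Slfn10-ps was at 14.7 and 13.9 CPM in Con and at 17.0 and 14.3 CPM in Fat. It was not called (log2 fold change 0.13, adjusted p = 0.506).

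The remaining members of these families were compared in the same fit. Of 11 other Parp genes, Parp1 and the tankyrases Tnks and Tnks2 among them, 0 were called in either direction with limma. At an unadjusted p-value under 0.05, 1 was lower and 1 higher, and 0 were called with edgeR's quasi-likelihood and exact tests or with DESeq2. Their log2 fold changes lay between -0.19 and 0.23 with a median of 0.02. Zc3hav1 (also called Parp13), an antiviral family member chosen after its values were seen, was at 99.8 and 90.5 CPM in Con and at 95.6 and 85.5 CPM in Fat, so its libraries overlapped between media. Its log2 fold change of -0.07 (adjusted p = 0.616) turned to 0.0087 without Fat replicate 2. Parp1, also named after its values were seen, had a TPM level of 0.556 and 0.762 times that of Parp14 in Con and of 0.886 and 1.21 times in Fat. Whether the 10 genes differ from the rest of their families was not tested, since the 10 were chosen with results of these data known.

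**Figure D3:**
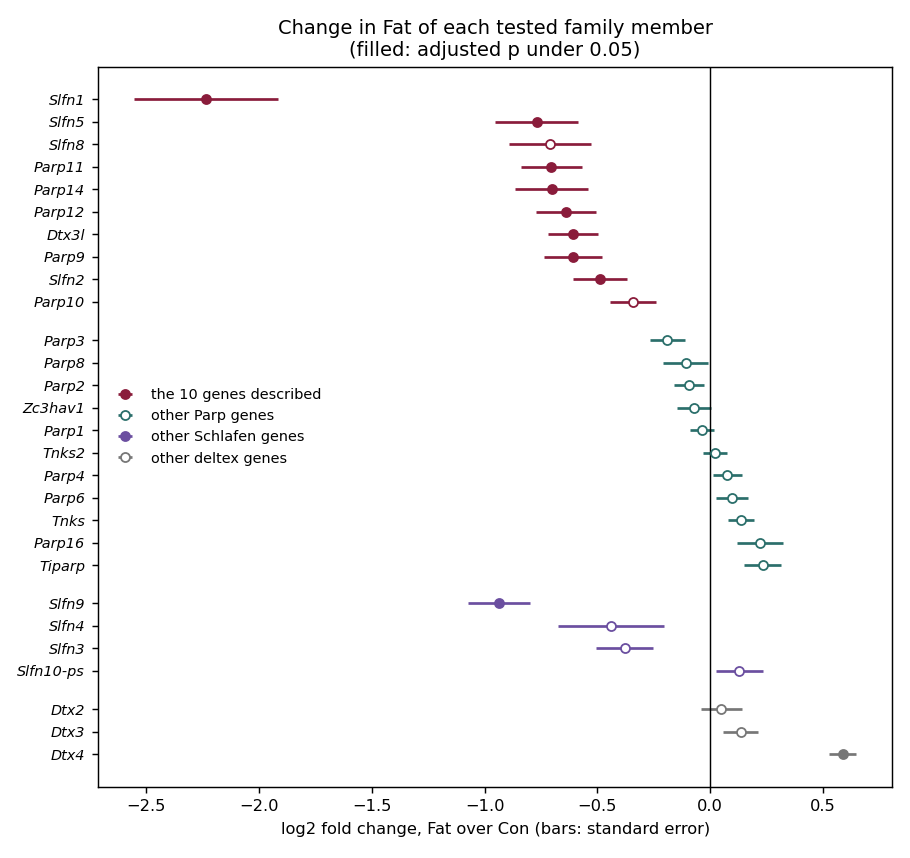
Log2 fold change of Fat over Con with its standard error for each tested gene of the Parp, Schlafen and deltex families, with filled points for an adjusted limma p-value under 0.05. The 10 genes described lie between -2.23 and -0.34, and the 11 other Parp genes between -0.19 and 0.23.

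Of 6 other Schlafen genes, 4 passed the filter and 1, Slfn9, was called lower. The median log2 fold change of the 4 was -0.41. Slfn14 and Slfnl1 had 3 reads or fewer in every library. Among the 3 tested deltex ligases other than Dtx3l, 1 was called, in the other direction. Dtx4 rose from 110.0 and 111.5 CPM in Con to 159.5 and 173.7 CPM in Fat (log2 fold change 0.59, standard error 0.06, adjusted p = 0.00352).

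Enzymes that remove ADP-ribose from proteins were listed as well. Of 7 such genes that passed the filter, 0 were called with limma, edgeR or DESeq2, 0 had an unadjusted limma p-value under 0.05, and the median log2 fold change was -0.12. Among 11 tested genes of NAD supply and breakdown, 1 was called lower and 0 higher, with 4 and 2 at an unadjusted p-value under 0.05. That gene was Cd38, whose product breaks down NAD. It fell from 29.7 and 24.1 CPM in Con to 13.9 and 12.8 CPM in Fat, a log2 fold change of -1.002 (standard error 0.11, adjusted p = 0.0044). The number called in this list was 4 without Con replicate 2 and 3 without Fat replicate 1.

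Interferon ligands, receptors and signalling genes were read beside the 10 genes. Ifnb1, the gene of interferon beta, had 1 read in each Con library and 0 in each Fat library. Ifng had 13 and 17 reads in Con and 4 and 4 in Fat, too few to pass the filter. Of the 14 genes that passed, 5 were called lower and 0 higher, 9 were lower at an unadjusted p-value under 0.05, and the median log2 fold change was -0.25. On the log2 scale, Irf1 fell by 0.86 (adjusted p = 0.00447), Irf8 by 0.48 (adjusted p = 0.00825) and Jak2 by 0.29 (adjusted p = 0.0476). Jak2 was not called without a filter on low genes (adjusted p = 0.0592), with a required mean of 5 CPM (adjusted p = 0.0540) or with the TPM values (adjusted p = 0.159). Irf1 and Irf8 were called in these fits. Irf2, named outside the rule after its values were seen, fell by 0.27 (adjusted p = 0.037). The number called in this list was 3 without Con replicate 1, 3 without Fat replicate 2 and 8 without Fat replicate 1.

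**Figure D4:**
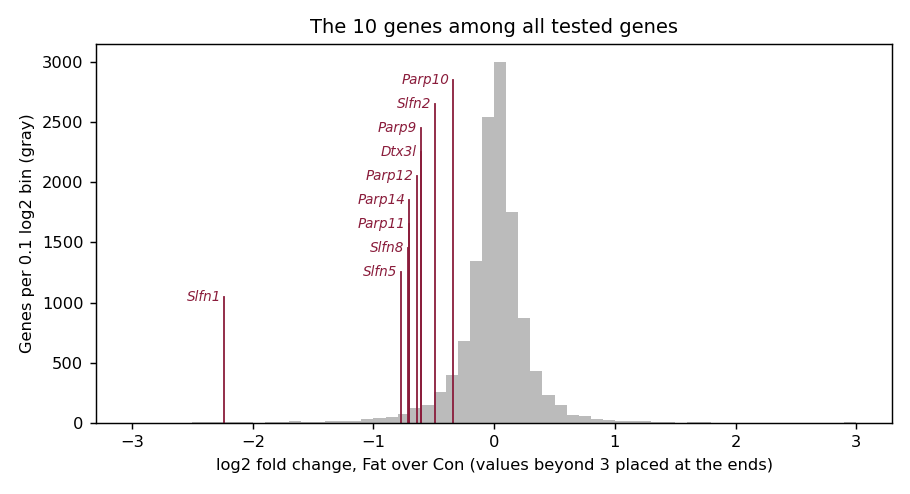
Distribution of the log2 fold change of Fat over Con over the 12470 tested genes (gray bars, genes per bin of 0.1), with a red line at the value of each of the 10 genes. All 10 lines lie left of 0, from -0.34 for Parp10 to -2.23 for Slfn1, while the median of all genes is 0.01.

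The genes whose pattern over the 4 libraries lay nearest to the median pattern of the 10 were Trim12a, Ifih1, Casp4, Ly6e and Fanci. Their root mean square distance from it, on centred log2 values, lay between 0.0116 and 0.0303. That of the 10 genes themselves was lowest for Parp12 (0.0311) and highest for Slfn1 (0.831). Ifih1, which encodes a sensor of viral RNA, was at 72.9 and 58.0 CPM in Con and at 46.7 and 35.9 CPM in Fat. Over only 4 libraries such likeness is a description.

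Markers of other cells were read in the same libraries. T cell markers, of which 7 of 8 were found, summed to 23.4 and 20.2 CPM in Con and to 15.5 and 15.0 CPM in Fat, with 6 of 6 tested genes at a negative log2 fold change, 0 called, and 5 at an unadjusted p-value under 0.05. Of the Cd3 genes, which define T cells, Cd3e had 30 and 34 reads in Con and 28 and 16 in Fat. Cd3d had 54 and 41 reads in Con and 27 and 30 in Fat. Cd3g had 80 and 69 reads in Con and 42 and 49 in Fat. The median log2 fold change of the 6 tested T cell markers was -0.66. Their part in the difference of Slfn1 or of the other Schlafen genes was not tested. B cell markers, 5 of 5 found, summed to between 18.2 and 23.8 CPM over the 4 libraries, with Con above Fat. Neutrophil markers, 7 of 8 found, summed to between 296.1 and 338.4 CPM in Con and between 293.7 and 298.0 CPM in Fat, so the media overlapped. NK cell and dendritic cell markers summed to at most 2.53 CPM in every library. In these 4 lists limma called 0 genes, and 2 neutrophil markers had an unadjusted p-value under 0.05. Endothelial and stromal markers, 7 of 7 found, summed to 529.3 and 552.8 CPM in Con and to 444.8 and 582.2 CPM in Fat. Of the 6 tested, 1 was called lower and 0 higher, 3 had a negative and 3 a positive log2 fold change, and the median was -0.07. All 12 adipocyte markers together summed to 7428 and 8637 CPM in Con and to 8819 and 8927 CPM in Fat, most of it Lpl, which macrophages also express. Of the 5 that passed the filter, Plin4 and Cidec were called higher and Pparg lower, and the median log2 fold change was 0.16. The 9 markers under 10 CPM in Con, a choice that favours a rise in Fat, had 6 and 8 reads together in the Con libraries against 196 and 133 in the Fat libraries, with Adipoq at 0 reads in both Con libraries. The part of this RNA in the results was not tested. Among macrophage markers, Fcgr1 and Mertk were called lower in Fat (log2 fold change -0.88, adjusted p = 0.0123, and -0.31, adjusted p = 0.0289), and the other 6 were not called.

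**Figure D5:**
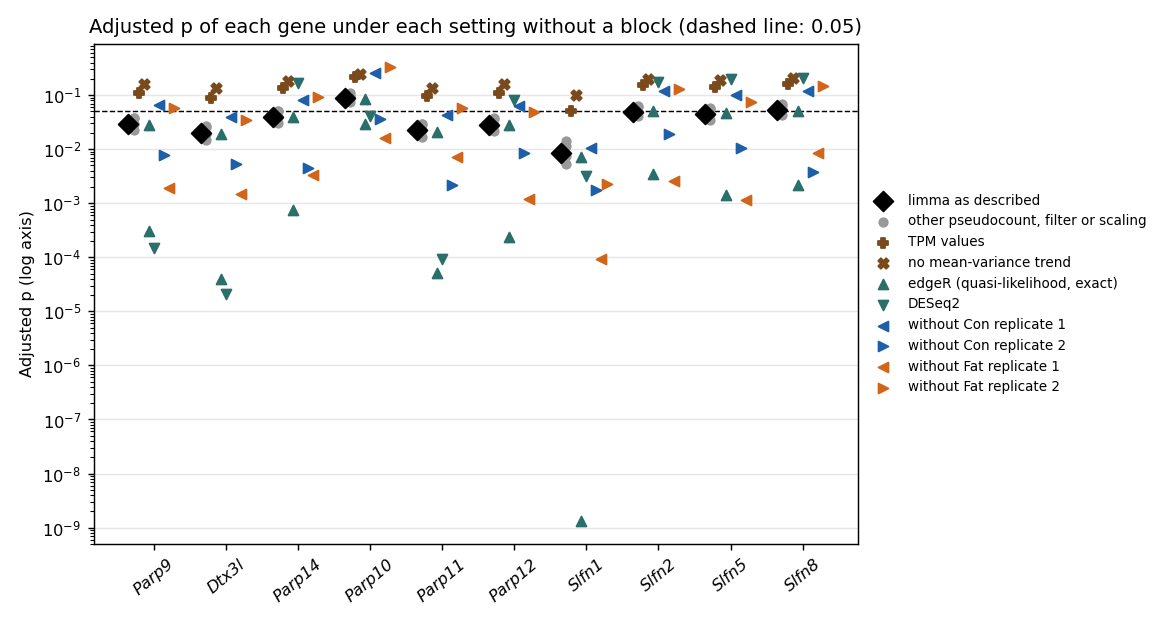
Adjusted p-value (log axis) of each of the 10 genes with limma as described (black diamonds) and under each alternative that uses no replicate block, with the dashed line at 0.05. With TPM values and without a mean-variance trend all 10 genes lie above the line, and with edgeR's exact test all 10 lie below it. The points of fits with a library left out lie on both sides.

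The calls also depended on the filter and the test. Without a filter on low values 5 of the 10 were called lower (3.13% of 17013 genes), and with a required mean of 5 CPM 5 were (5.32%). With the TPM values 0 of the 10 were called (1.34% of tested genes called lower). At an unadjusted p-value under 0.05, 10 were lower. Without limma's mean-variance trend 0 were called (0.0962%), with 9 lower at an unadjusted p-value under 0.05. The share of all tested genes at the unadjusted threshold was not counted in these fits, so the unadjusted counts cannot be weighed. On reads recovered from the CPM values, edgeR's quasi-likelihood test called 7 of the 10 lower (5.20%), its exact test 10 (7.45%) and DESeq2 5 (4.77%). With 2 libraries per medium, the smallest two-sided p that exact permutation can give for 1 gene is 0.333.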

How the data were processed

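Libraries were made from poly(A) RNA with a stranded kit and sequenced as single reads. The authors deposited the CPM (reads per library size) and the TPM (also scaled for gene length) of each library. In the CPM the read total of each library is multiplied by a further factor, between 0.990 and 1.01. The submitters' processing notes name the build GRCm39, the paper names edgeR for its comparison, and the aligner and annotation are not given in the sources used here. Dividing each CPM value by what 1 read is worth in its library gave whole reads (100% of values, within 0.01 of a read). Files were grouped by their sample titles.

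Fat was compared with Con with limma 3.58.1 in R 4.3.3 (trend, Benjamini-Hochberg, two-sided) on log2(CPM + 0.1) for the 12470 genes that reached 0.5 CPM in 2 or more libraries. edgeR 4.0.16 and DESeq2 1.42.0 were run on the recovered reads. All p-values without another name are adjusted limma values. Fits were first run on simulated data to check the code. Those runs were not matched to the changes of the 10 genes and say nothing about their calls. The genes and lists were chosen with earlier results of these data known. Named beyond the 10 genes are up to 4 called genes of each list, those called against its direction and the 5 genes nearest in pattern. Slfn9, the neighbour of Slfn8, and Slfn10-ps, which shares the most stretches with Slfn8, are named too. A called gene of the interferon list is not reported here. Adgre1, Naprt and Adprs were matched through older symbols. Alternatives were another pseudocount, filter, scaling or test, the TPM values, a replicate block and each library left out. Shared stretches were exact matches between GENCODE M21 transcripts. No molecular identifiers were used, so reads can be copies of 1 molecule.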

Additional observations from a re-analysis of the deposited data

How the results depend on the processing

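All 10 genes kept a negative log2 fold change under all 14 alternatives. That was fixed in advance for the fits with a library left out, since both Fat libraries lay below both Con libraries in each gene. A change of filter, block or trend leaves the estimate itself unchanged. The number called did not hold. Of the 10, 5 were called lower without a filter, 5 when a mean of 5 CPM was required, 5 with DESeq2, 0 with the TPM values and 0 without the mean-variance trend. With each library left out in turn between 3 and 10 were called. Over all genes, 170 lower and 237 higher calls were made with TPM and 12 and 19 without the trend, against 624 and 498, and leaving out a library gave between 313 and 612 lower and between 216 and 519 higher. In the other lists, no trend left 0 called among other Schlafen genes, deltex ligases, NAD genes and interferon signalling genes. TPM left 0 other Schlafen genes and 2 interferon signalling genes called lower. For NAD genes, 2 were called lower after median-ratio rescaling, 3 with edgeR's exact test (and 1 higher) and 3 with DESeq2, and between 1 and 4 with a library left out. Interferon signalling genes called lower lay between 3 and 8 with a library left out. Without a filter, 1 gene of ADP-ribose removal was called higher. Adprhl1, the gene of this list that the filter had left out, had 0 reads in each Con library and 4 and 7 in Fat. The log2 fold change of Zc3hav1 lay between -0.15 and 0.0087 with a library left out. The causes were not tested.

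The labels number the replicates but name no shared batch. Deviations of libraries that share a number correlated at 0.20 over the tested genes, and 2 pairs cannot show that the numbers pair the samples. With a block for the replicate number, 1242 of 12470 genes were called lower and 1278 higher, and all 10 genes described were called lower. With this block 1 other Parp gene (Tiparp) was called higher, 4 NAD genes lower and 1 higher, and 10 interferon signalling genes lower. Each of the 10 had at least 112 reads in every library, and the effect of depth was not tested.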
